A study of Homo sapiens with 6 samples.

Results

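Genes of the nuclear pore complex and of nuclear transport were followed in MM.1S, a human cell line from multiple myeloma, a cancer of antibody-secreting plasma cells. Members were chosen by a rule on symbols, with earlier results of these data known. They are the numbered nucleoporins (NUP), exportins (XPO), importins (IPO), karyopherins (KPNA and KPNB), transportins (TNPO) and Ran-binding proteins (RANBP), with RANGAP1, POM121, NDC1, SEH1L and CSE1L. They came to 58 genes of the 14884 measured. Each was tested with 1 probe set, the brightest for IPO5, NUP214 and RANBP1, which have 2 probe sets each. RAN, RCC1, XPO1, XPOT, KPNA2, NUP62, TPR, AAAS and SEC13 belong to the same families but were not analysed here. RNA was hybridised to 6 one-colour arrays. All cells, controls included, first had a pulse of 1 h with Cfz, the usual abbreviation of the proteasome inhibitor carfilzomib. They were then cultured for 12 h with 10 µM ATRA (all-trans retinoic acid, a vitamin A derivative that switches on nuclear receptors), on 3 arrays, or with the solvent DMSO, on 3 arrays. Both groups are 1 cell line, and samples with no Cfz pulse were not analysed here.

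The nuclear pore is a ring of nucleoporins that spans the nuclear envelope. Y-shaped scaffold complexes form its outer rings, an inner ring lines the membrane, membrane proteins anchor it, and nucleoporins with phenylalanine-glycine repeats fill the channel and extend as cytoplasmic filaments and a nuclear basket. Importins and exportins carry cargo through the channel, and the small GTPase Ran sets the direction, being loaded with GTP in the nucleus and made to hydrolyse it in the cytoplasm. Exportin 1 is a drug target in myeloma.

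With ATRA, 1 of the 58 genes rose and 7 fell. NUP210, a membrane glycoprotein of the pore, rose 1.94-fold. NUP107 and NUP85 of the Y complex, NUP93 and NUP188 of the inner ring, the Ran cofactor RANBP1, the exportin CSE1L and the importin IPO9 fell, by 1.71-fold down to 1.33-fold. A gene was called at an adjusted p under 0.05 (limma, Benjamini-Hochberg over all 14884 genes, two-sided). The background is 1.73% of all genes called higher and 2.07% called lower, and for members the shares called lower were 12.1% of all 58 and 13.7% of the 51 that lie in the brighter 50% of genes, where 3.14% of genes were called higher and 3.82% lower. The 1 member called higher among 58 is no more than the 1.73% of all genes would give. The shares of all genes and of the brighter 50% are also the background of the calls in each group below. The calls of NUP210 and NUP107 held in each of the 6 fits that left out 1 array, and the other 6 did not hold in all of them: without 1 array, 1 or 2 genes were called lower, 2 only without ATRA replicate 3, where RANBP1 kept its call. In those 6 fits 0.638% to 1.11% of all genes were called lower and 0.752% to 1.02% higher.

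Most members differed in the same direction, by small amounts. The log2 change was under 0 for 51 of the 58 (87.9%, against 52.9% of all genes and 59.2% of the brighter 50%). All 3 ATRA arrays lay below all 3 DMSO arrays for 37 members (63.8%), where the background is 14.8% of all genes and 24.5% of the brighter 50%. An unadjusted p under 0.05 was reached by 25 members (43.1%), against 17.9% of all genes and 27.6% of the brighter 50%. The ATRA arrays lay above the DMSO arrays for 1 member, NUP210, against a background of 9.86%. The median log2 change of the members was -0.20, beside -0.01 over all genes and -0.05 over the brighter 50%. Expressed per array, the median over the members of the log2 value minus the gene's mean over the DMSO arrays was -0.26, -0.19 and -0.24 in the ATRA arrays, against -0.02, 0.00 and 0.02 in the DMSO arrays. The 3 ATRA arrays thus stood apart from the DMSO arrays on this measure, without overlap. Over all genes it was -0.020, -0.018 and -0.026 in the ATRA arrays, against -0.0021, 1.5e-05 and 0.0005 in the DMSO arrays. These did not overlap either, at much smaller differences. The DMSO arrays lie near 0 by the way the measure is built. In bulk RNA, fewer cells that express a gene and less RNA per cell cannot be told apart.

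**Figure D1:**
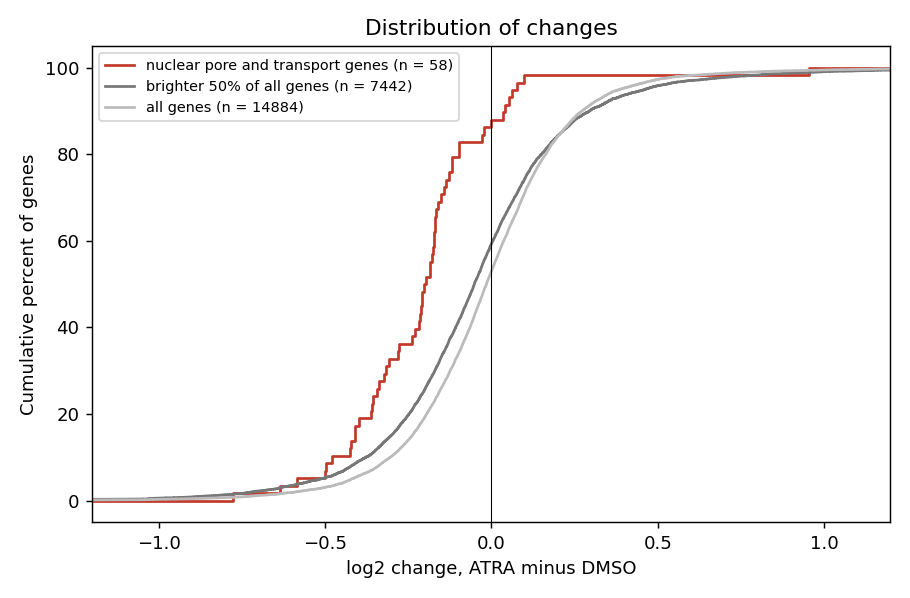
Cumulative percent of genes (vertical axis) up to each log2 change, ATRA minus DMSO (horizontal axis), for the 58 nuclear pore and transport genes, the brighter 50% of all genes and all 14884 genes. The curve of the 58 genes lies left of the others over the middle of the range, with a median of -0.20, and its isolated last step on the right is NUP210 at 0.95.

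The pore membrane holds the 1 member that rose. NUP210 spans the nuclear envelope, and in mouse it is known as a pore protein that appears during muscle and neural differentiation. Its intensity was 1887, 1890 and 1819 in the ATRA arrays, against 934, 991 and 962 in the DMSO arrays. Each ATRA array was thus far above each DMSO array. The means were 1866 ± 40.1 with ATRA and 962.6 ± 28.7 with DMSO (SD, n = 3 arrays each), a log2 change of 0.95 (SE 0.084, 95% interval 0.76 to 1.15, limma adjusted p = 0.00201). Among all 14884 genes this was the increase of rank 94. NDC1, which holds new pores in the membrane, did not pass, at 533.5 ± 25.3 with ATRA and 647.3 ± 26.2 with DMSO (log2 change -0.28, adjusted p = 0.158), with no overlap between the groups. The log2 ratio of NUP210 to NDC1 within an array, a pair chosen after the values were seen, was 1.84, 1.75 and 1.83 in the ATRA arrays, against 0.60, 0.57 and 0.56 in the DMSO arrays, so these genes did not change in proportion. POM121, another anchor, had a log2 change of -0.13 (SE 0.22) with overlapping arrays, and its value is uncertain because the genome holds the near-identical POM121C. NUP210L, a relative of NUP210, and the pseudogene NUP210P1 were near or under the median of all probe sets (9.40 to 9.76), at mean intensities of 7.13 and 6.81 with ATRA and 9.52 and 7.86 with DMSO. At such values the files give no means of telling expression from background.

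The upstream sequences of the genes with the most stable calls are shown to set the promoter of the gene that rose beside that of the gene that fell most. They are the 250 bases before the outermost transcription start in RefSeq (GRCh38.p14), 5′ to 3′ in the direction of transcription, at chr3:13420323-13420572 on the minus strand for NUP210 and chr12:68686728-68686977 on the plus strand for NUP107. Capitals mark matches to the letters of known motifs.
NUP210: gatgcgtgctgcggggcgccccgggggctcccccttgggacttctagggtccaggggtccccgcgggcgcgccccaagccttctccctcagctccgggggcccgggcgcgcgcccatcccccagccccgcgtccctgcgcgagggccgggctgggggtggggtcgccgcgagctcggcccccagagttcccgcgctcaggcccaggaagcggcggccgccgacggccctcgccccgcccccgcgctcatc
NUP107: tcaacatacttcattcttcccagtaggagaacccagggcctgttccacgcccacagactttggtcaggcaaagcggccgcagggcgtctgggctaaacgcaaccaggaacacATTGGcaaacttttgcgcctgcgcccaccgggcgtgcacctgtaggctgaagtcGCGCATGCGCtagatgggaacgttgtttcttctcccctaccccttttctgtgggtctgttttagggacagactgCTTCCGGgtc
The windows differ in composition: 80.8% of the NUP210 bases are G or C, above 96.4% of the 8409 promoters of measured protein-coding genes searched (median 63.2%), and 57.2% of the NUP107 bases are. The letters searched, on both strands, were TTTCCCGC, TTTCGCGC, TTTGCCGC and TTTGGCGC (E2F), CCAAT (the CCAAT box), CACGTG (the MYC E-box), GCATGCGC (a core of the NRF1 site), CCGGAAG (ETS factors) and TTTGAA (the cell cycle homology region). NUP107 holds a reversed CCAAT starting 138 bases before the start, the NRF1 letters on both strands, overlapping, at 84 and 82, and a reversed ETS match at 10, with no overlap between different motifs, and NUP210 holds 0 matches. CCAAT was found in 21 of the 47 members with such a window (44.7%) and in 35.4% of all 8409 promoters. The other shares among members and all promoters were 21.3% and 13.1% for ETS, 17.0% and 10.2% for TTTGAA, 12.8% and 8.04% for CACGTG, 8.51% and 4.25% for NRF1 and 4.26% and 4.03% for E2F. Of the 6 genes called lower that had a window, 4 hold CCAAT and 0 hold E2F letters. A match describes letters and shows no binding.

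**Figure D2:**
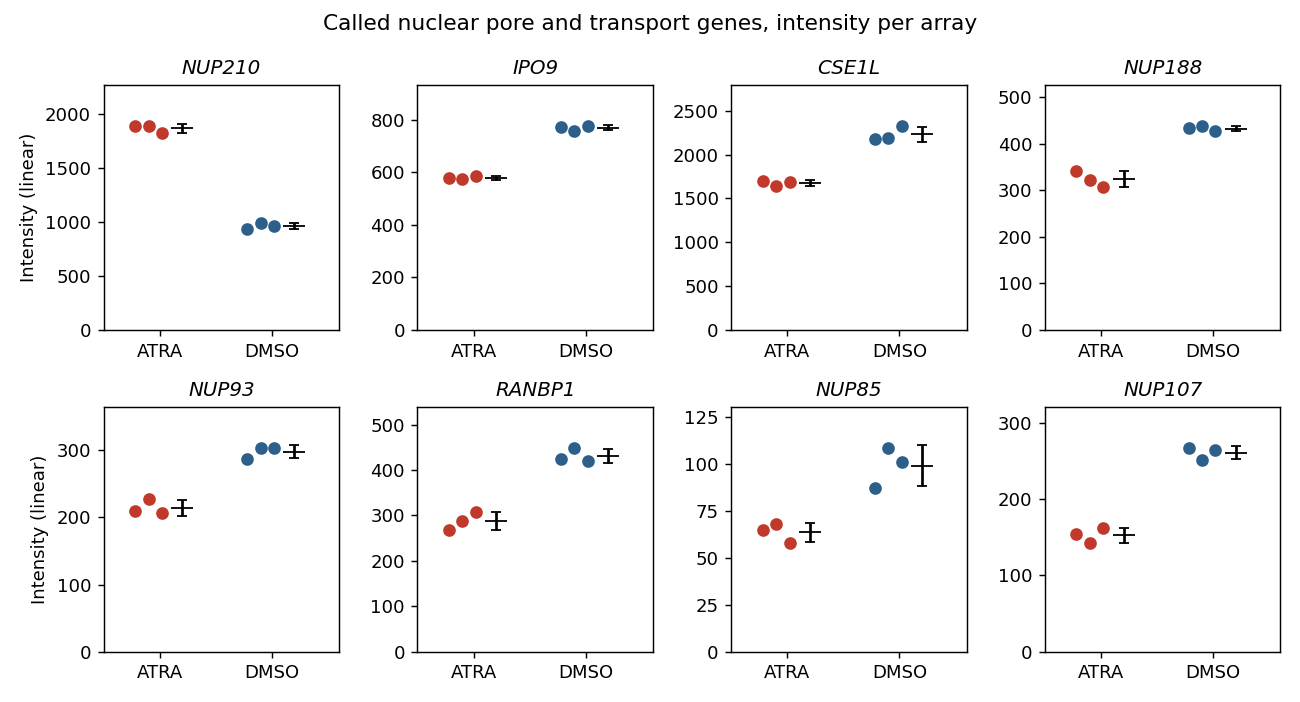
Linear intensity (vertical axis, from 0) in each ATRA array (left, red) and each DMSO array (right, blue) for the 8 called genes, with the mean and SD of the 3 arrays in black beside them. The arrays of the groups do not overlap for any of the 8, and NUP210 is the gene that was higher with ATRA.

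The Y complex, the outer scaffold that also binds kinetochores in mitosis, had 7 measured members, of which 2 fell and 6 had no overlap between groups. All 7 log2 changes were under 0, with a median of -0.35. NUP107 was at 154, 142 and 161 in the ATRA arrays, against 267, 251 and 264 in the DMSO arrays. The ATRA arrays lay well under the DMSO arrays, with means of 152.4 ± 9.69 and 260.8 ± 8.63 (SD, n = 3 each), a log2 change of -0.78 (SE 0.092, 95% interval -0.99 to -0.56, limma adjusted p = 0.00648). NUP85 was at 64.8, 68.0 and 57.8 in the ATRA arrays, against 87.1, 109 and 101 in the DMSO arrays, a log2 change of -0.64 (SE 0.12, adjusted p = 0.0321). Its DMSO arrays spread more than its ATRA arrays, and its call was lost whichever array was left out (adjusted p 0.0509 to 0.115). NUP160 (-0.50, adjusted p = 0.0698) and NUP43 (-0.35, adjusted p = 0.0804) did not pass, and NUP133 (-0.21), SEH1L (-0.18) and NUP37 (-0.17, arrays overlapping) were nearer 0. NUP133 binds NUP107 in the stem of the Y, yet the log2 ratio of NUP107 to NUP133, a pair chosen after the values were seen, was -0.44, -0.70 and -0.41 in the ATRA arrays, against 0.11, 0.03 and 0.02 in the DMSO arrays. The 2 genes therefore changed to unequal degrees. AHCTF1, which brings the Y complex to chromatin, stands outside the symbol rule and did not pass (-0.10, adjusted p = 0.602).

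In the inner ring, the scaffold that lines the pore membrane, 2 of 5 members fell and all 5 log2 changes were under 0, with a median of -0.36. NUP93, which links the ring to the channel nucleoporins, was at 209, 227 and 206 in the ATRA arrays, against 287, 304 and 303 in the DMSO arrays, a log2 change of -0.48 (SE 0.090, limma adjusted p = 0.0335). NUP188, a large scaffold partner of NUP93, was at 341, 323 and 306 in the ATRA arrays, against 433, 438 and 427 in the DMSO arrays (-0.42, SE 0.088, adjusted p = 0.0474). In both genes the highest ATRA array was under the lowest DMSO array by a margin wider than the spread within either group. NUP205, the paralogue of NUP188, had 495, 533 and 509 with ATRA, against 659, 662 and 651 with DMSO, and just missed the threshold (-0.36, adjusted p = 0.0693). NUP155 (-0.31, adjusted p = 0.125) and NUP35 (-0.21, overlapping arrays) did not pass. With 1 array left out, NUP93 (adjusted p 0.0627 to 0.117) and NUP188 (0.0938 to 0.148) lost their calls in all 6 fits, and NUP188 also lost it with quantile (0.0624) and cyclic loess (0.0743) normalization and with the dimmest probe set of each symbol (0.0509).

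The channel, the cytoplasmic side and the nuclear basket had no member called in the reported limma fit. Of their 9 genes 5 (55.6%) had an unadjusted p under 0.05, against 17.9% of all genes and 27.6% of the brighter 50%. With eBayes with trend and robust 3 were called lower, where 5.60% of all genes were. Without the dimmer 50% of genes 3 were called lower too, where 9.50% of the genes kept were. All 7 measured genes of the channel and cytoplasmic side had log2 changes under 0, between -0.50 and -0.16, and 6 of the 7 had no overlap. NUP54, a channel nucleoporin, was at 25.7, 23.1 and 28.5 in the ATRA arrays, against 35.3, 33.8 and 39.9 in the DMSO arrays (-0.50, SE 0.12, adjusted p = 0.0693). NUP88, which docks the cytoplasmic filaments, was at 182, 175 and 185 with ATRA, against 222, 235 and 231 with DMSO (-0.34, adjusted p = 0.0787). NUP214, its filament partner and a fusion partner in leukaemia, had a log2 change of -0.20 (adjusted p = 0.278) by its brighter probe set and -0.49 (adjusted p = 0.166) by its dimmer one. NUP58 (-0.22), NUP98 (-0.17), NUP42 (-0.17) and RANBP2 (-0.16), the SUMO ligase of the filaments, had adjusted p of 0.230, 0.374, 0.609 and 0.425. RANBP2 shares sequence with the RGPD gene family, so its value is uncertain. In the basket, NUP153 was at 1149 ± 26.7 with ATRA and 1392 ± 38.1 with DMSO (SD, n = 3; -0.28, adjusted p = 0.137), without overlap, and NUP50 had a log2 change of -0.21 with overlapping arrays.

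**Figure D3:**
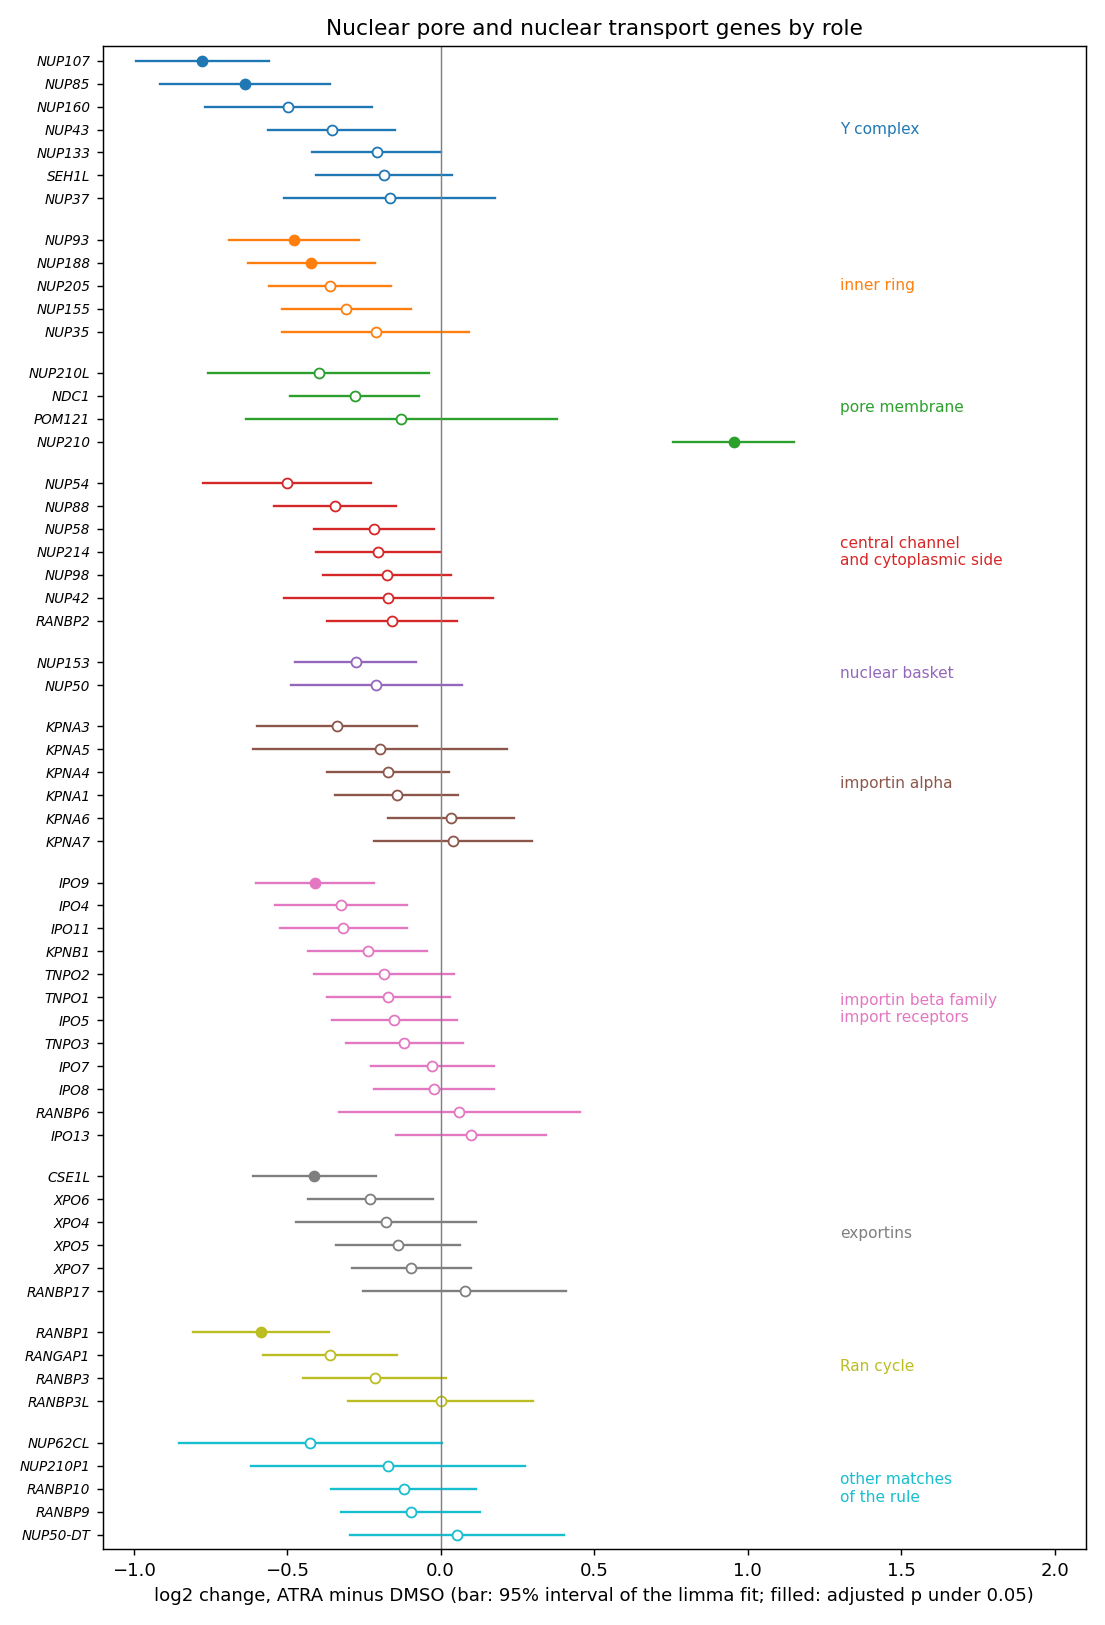
Log2 change, ATRA minus DMSO (horizontal axis), of each of the 58 genes (vertical axis), coloured and grouped by role, with the 95% interval of the limma fit as a bar and a filled point where the adjusted p is under 0.05. Nearly all points of the scaffold groups lie left of 0, NUP210 stands alone at 0.95 on the right, and several importins lie on 0.

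Among import receptors 1 of 18 measured fell. The receptors of the importin beta family bind cargo directly or through an importin alpha adaptor, and their 12 members had log2 changes from -0.41 to 0.10, with a median of -0.16. IPO9, which carries histones and actin into the nucleus, was at 579, 572 and 587 in the ATRA arrays, against 772, 758 and 776 in the DMSO arrays. Its arrays were tight in both groups, with means of 579.4 ± 7.33 and 769.0 ± 9.56 (SD, n = 3 each; log2 change -0.41, SE 0.082, limma adjusted p = 0.0422). KPNB1, importin beta itself, was at 2237, 2254 and 2246 in the ATRA arrays, against 2596, 2626 and 2721 in the DMSO arrays, and did not pass (-0.24, 95% interval -0.43 to -0.04, adjusted p = 0.191). IPO4 (-0.32, adjusted p = 0.116) and IPO11 (-0.32, adjusted p = 0.112) were likewise without overlap but not called. TNPO1, the receptor of many RNA-binding proteins, TNPO2 and TNPO3, the receptor of SR splicing factors, lay between -0.18 and -0.12. IPO5 was at -0.15 by its brighter probe set and -0.04 by its dimmer one. IPO7 (-0.03), IPO8 (-0.02), RANBP6 (0.06) and IPO13 (0.10, adjusted p = 0.693) had overlapping arrays. Without 1 array IPO9 was no longer called in any of the 6 fits (adjusted p 0.105 to 0.132), and also with quantile (0.0602) and cyclic loess (0.0640) normalization.

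The importin alpha adaptors, which read the classical nuclear localisation signal, had no called gene among 6 measured. An unadjusted p under 0.05 was reached by 1 (16.7%, beside 17.9% of all genes and 27.6% of the brighter 50%). With eBayes with trend and robust 1 was called lower, where 5.60% of all genes were. It was KPNA3 each time, at 290, 356 and 357 in the ATRA arrays, against 423, 407 and 432 in the DMSO arrays (-0.34, SE 0.11, limma adjusted p = 0.168). ATRA replicate 1 was well under the other ATRA arrays, and the log2 change was -0.24 without it. KPNA4 (-0.17) and KPNA1 (-0.14, adjusted p = 0.452) had no overlap, and KPNA5 (-0.20) and KPNA6 (0.03) overlapped. KPNA7, an importin alpha best known from oocytes and embryos, was at a mean intensity of 6.10 with ATRA and 5.92 with DMSO. That is under the median of all probe sets (9.40 to 9.76) and too dim to judge.

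Of the exportins, 1 of 6 fell. CSE1L returns importin alpha to the cytoplasm after import. It was at 1703, 1642 and 1694 in the ATRA arrays, against 2176, 2193 and 2330 in the DMSO arrays, and the groups were far apart (log2 change -0.41, SE 0.085, limma adjusted p = 0.0468). Leaving out any 1 array ended the call (adjusted p 0.116 to 0.151), as did quantile (0.0518) and cyclic loess (0.0649) normalization and testing each symbol by its dimmest probe set (0.0504), which leaves the values of CSE1L itself as they are. The log2 ratio of CSE1L to KPNB1, a pair chosen after the values were seen, was -0.39, -0.46 and -0.41 in the ATRA arrays, against -0.25, -0.26 and -0.22 in the DMSO arrays. XPO6, the exportin of actin, had a log2 change of -0.23 (adjusted p = 0.226), XPO4 -0.18, XPO5, which exports microRNA precursors, -0.14 (adjusted p = 0.474), and XPO7 -0.10. RANBP17, a relative of XPO7, was at a mean intensity of 5.91 with ATRA and 5.61 with DMSO, too dim to judge.

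In the Ran cycle, 1 of 4 measured genes fell (25%, beside 2.07% of all genes and 3.82% of the brighter 50%). RANBP1, which helps strip Ran from receptors in the cytoplasm and stimulates GTP hydrolysis, was at 267, 289 and 307 in the ATRA arrays, against 424, 450 and 419 in the DMSO arrays. The ATRA arrays were all lower, and the groups did not touch (log2 change -0.59, SE 0.094, limma adjusted p = 0.0191). Its other probe set gave -0.55 (adjusted p = 0.0240 in a fit of all probe sets). With 1 array left out the adjusted p ran from 0.0465 to 0.0784, under the threshold only without ATRA replicate 3. RANGAP1, the GTPase activator of Ran, was at 296, 293 and 260 with ATRA, against 365, 357 and 365 with DMSO, and did not pass (-0.36, adjusted p = 0.0903). The log2 ratio of RANBP1 to RANGAP1 was -0.15, -0.02 and 0.24 in the ATRA arrays, against 0.22, 0.33 and 0.20 in the DMSO arrays. This pair too was chosen after the values were seen, and of the 4 pairs so compared only its groups overlapped. RANBP3, a cofactor of exportin 1, had a log2 change of -0.22 (adjusted p = 0.318), and RANBP3L was at 5.63 with ATRA and 5.61 with DMSO, too dim to judge. The remaining matches of the rule, RANBP9 (-0.10) and RANBP10 (-0.12), subunits of a ubiquitin ligase, and NUP62CL, NUP210P1 and the non-coding NUP50-DT, all dim, overlapped between groups.

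**Figure D4:**
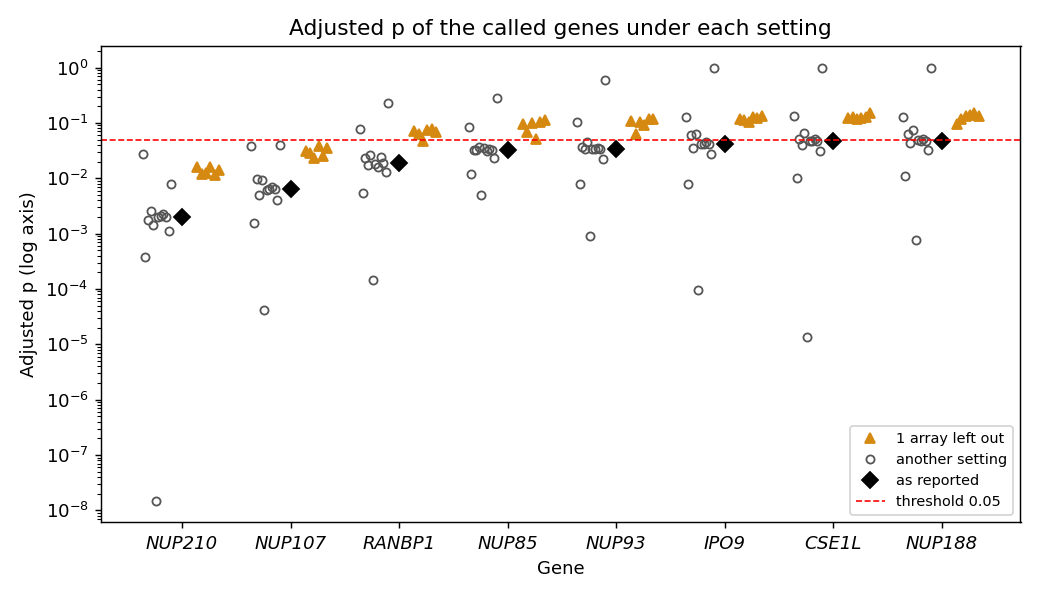
Adjusted p (vertical axis, log scale) of each of the 8 called genes (horizontal axis) as reported (black diamonds), with 1 array left out (orange triangles) and under the 12 other settings (open circles), with the threshold as a dashed line. NUP210 and NUP107 lie under the threshold in all of them, and the other 6 genes cross it.

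Genes that work beside the pore were taken from lists written by function. Of 15 measured pore and transport partners outside the rule, 0 were called by limma. An unadjusted p under 0.05 was reached by 3 (20%, beside 17.9% of all genes and 27.6% of the brighter 50%). The largest differences were those of RCC2 (-0.27, adjusted p = 0.187), a relative of the Ran exchange factor, and SENP1 (-0.27, adjusted p = 0.151), a SUMO protease found at pores. With eBayes with trend and robust both were called lower (0.00468 and 0.00327), where 5.60% of all genes were. Without the dimmer 50% of genes SENP1 alone of the 15 was called lower (0.0395), where 9.50% of the genes kept were. Of 19 measured mRNA export genes 2 fell (10.5%, beside 2.07% of all genes and 3.82% of the brighter 50%) and 0 rose (median -0.15). ALYREF, the adaptor that loads mRNA onto its export receptor, was at 67.1 ± 3.51 with ATRA and 109.8 ± 7.94 with DMSO (-0.71, adjusted p = 0.0108). THOC1, of the complex that couples transcription to export, fell too (-0.46, adjusted p = 0.0329). Of 13 measured genes of the nuclear lamina and inner nuclear membrane 4 fell (30.8%, against the same shares) and 0 rose (median -0.22). LMNB1, lamin B1, was at 217.4 ± 5.79 with ATRA and 356.9 ± 22.2 with DMSO (SD, n = 3; -0.71, adjusted p = 0.00815). TMEM201 (-0.87), NRM (-0.71) and LMNB2 (-0.49, adjusted p = 0.0445) fell too, while LBR (-0.02), the lamin B receptor, did not pass and overlapped. The values of NRM are identical to those of at least 1 other probe set. Without such probe sets 3 of 12 genes of this list were called lower, where 2.05% of all genes were. With 1 array left out, LMNB1 kept its call in all 6 fits, THOC1 (adjusted p 0.0851 to 0.115) and LMNB2 (0.0851 to 0.146) kept it in 0, TMEM201 in 2, ALYREF in 4 and NRM in 5. LMNB2 was not called with quantile (0.0631) or cyclic loess (0.0642) normalization either, nor THOC1 with cyclic loess (0.0510).

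DNA replication genes fell in the same samples. Of 18 measured genes of origin licensing and the replication fork, 17 fell and 0 rose, with a median log2 change of -0.72. The share called lower was 94.4%, beside 2.07% of all genes and 3.82% of the brighter 50%. All 18 had ATRA arrays below all DMSO arrays, against 14.8% of all genes and 24.5% of the brighter 50%. With 1 array left out 11 or 12 were called lower, where 0.638% to 1.11% of all genes were. Examples are GINS2 (-1.38), MCM4 (-1.03), CDT1 (-0.98) and MCM5 (-0.91). The part of proliferation in the values of the pore genes was not tested.

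The arrays correlated at 0.990 to 0.992 within a group and 0.985 to 0.987 between groups over all genes. Of 10 plasma cell and myeloma markers 7 were measured, and their summed intensity was 9025 to 9353 with ATRA and 7137 to 7420 with DMSO, with CD38 (log2 change 1.95), SDC1 (0.84) and XBP1 (0.54) called higher. Of the 7, 4 had all ATRA arrays above the DMSO arrays and 3 had all of them below, namely SLAMF7 (-0.31, adjusted p = 0.112), POU2AF1 (-0.25, adjusted p = 0.383) and IRF4 (-0.17, adjusted p = 0.383), none of which passed. The summed intensities with ATRA and with DMSO were 45.4 to 50.2 and 52.4 to 59.8 for 3 T cell markers, 565 to 639 and 735 to 748 for 5 myeloid markers (mostly CD68, at 573 and 710), 173 to 198 and 178 to 267 for 3 epithelial markers and 16.4 to 21.3 and 16.9 to 21.0 for 2 markers of fibroblasts and endothelium. Of these 13, 0 were called in the reported limma fit. An unadjusted p under 0.05 was reached by 2 (15.4%, beside 17.9% of all genes). With eBayes with trend and robust 1 was called lower, where 5.60% of all genes were. Without the dimmer 50% of genes 1 of the 5 kept was called lower, where 9.50% of the genes kept were. No label tells whether arrays within a group stem from different cultures, so the p-values measure only the spread between these samples, which may be technical, and the number of arrays limits the precision.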

How the data were processed

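Total RNA of 6 MM.1S samples was labelled with biotin by a whole-transcript kit, per the labels. The authors deposited intensities on a linear scale, with a value for each of 53617 probe sets on every array. RMA and limma are named in the submitters' processing notes, without version or role, and no genome build is given in the sources used here. The scale was read from the values, which were turned to log2 with no pseudocount. The platform annotation gave 16098 probe sets 1 symbol and 0 several, and 37519 are unnamed here. Each of the 14884 symbols was tested with its probe set of highest mean. Probe sets can blend near-identical genes.

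Groups and replicate numbers came from the titles. limma 3.58.1 in R 4.3.3 (lmFit, eBayes, no block, no filter) compared 3 ATRA with 3 DMSO arrays, with Benjamini-Hochberg adjustment over all genes. The steps were tested on simulated data. The brighter 50% of genes is by mean log2 level over the 6 arrays. Named genes were every called member, the largest rise and fall in each role, a fixed set, and from each partner list up to 4 called genes, or 2 with none called. The other members complete their groups. Members, lists and this rule were chosen with earlier results of these data known, and the comparison with the brighter 50% was added after the values were seen. Same-numbered arrays did not deviate together (correlations of deviations 0.009 to 0.017). The alternatives are given in the closing section. Promoters are RefSeq's, with the 50 transcribed bases of each window left out, for 47 members.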

Additional observations from a re-analysis of the deposited data

How the results depend on the processing

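Among the 18 alternatives, the count of members called lower, 7 as reported, was 1 with the replicate block and with limma's treat at 1.2-fold, 4 with quantile and with cyclic loess normalization (without CSE1L, IPO9 and NUP188), 18 of 51 members without the dimmer 50% of genes and 23 with eBayes with trend and robust, and 1 to 2 with 1 array left out. It was 5 with the lowest-mean probe set of a symbol (without CSE1L and NUP188), 8 of 56 members with protein-coding genes alone (NUP205 added) and 7 in the other 4 settings. The share of all genes called lower moved too, to 0.585%, 0.464%, 2.02%, 1.77%, 9.50% and 5.60% in the first 6 settings. It was 0.638% to 1.11% with 1 array left out, 1.91% with the lowest-mean probe set and 3.18% with protein-coding genes alone. The replicate block rests on numbers that the arrays do not bear out as pairs, and its fits and those with fewer arrays have fewer residual degrees of freedom. The cause of the other moves was not tested. NUP210 was the 1 member called higher in all 18. The median change of the members stayed under 0 in all settings run, at -0.17 with cyclic loess normalization and -0.24 to -0.18 with 1 array left out. Members with all ATRA arrays above the DMSO arrays numbered 1 to 2 with 1 array left out, and those with all below 37 to 41, and 34 to 38 in the other settings. With fewer arrays in a group, separation without overlap is easier to reach. The matching shares over all genes are not given for these settings, so these counts have no background beside them. Dim members changed sign: with 1 array left out KPNA7 ran from -0.049 to 0.11 (under 0 without ATRA replicate 3), RANBP17 from -0.014 to 0.20 (under 0 without ATRA replicate 3 or DMSO replicate 2) and NUP50-DT from -0.099 to 0.19 (under 0 without DMSO replicate 1). Brighter members near 0, such as RANBP6 and IPO8, changed sign in such fits too. Members with a log2 change under 0 numbered 49 to 53 with 1 array left out, beside 51 as reported. With the replicate block NUP210 and NUP107 kept their calls. The calls lost there were those of RANBP1 (adjusted p = 0.0785), NUP85 (0.0842), NUP93 (0.105), IPO9 (0.130), NUP188 (0.130) and CSE1L (0.132). The median over all genes moved by under 0.1 on the log2 scale in each scaling. Signal near background limits the dim members.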
